A study of Mus musculus with 2 samples.

Results

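The genes described here are 10 immunoglobulin and B cell receptor genes, Cd79a, Cd79b, Ms4a1, Igkc, Iglc2, Ighm, Ighd, Ighg1, Jchain and Mzb1, chosen by name out of 32285 genes in the deposited tables. They were read in sorted CD45-positive cells, that is leukocytes, from tumours of the mouse mammary carcinoma line 4T1, which serves as a transplantable model for triple-negative breast cancer. The injected 4T1 cells expressed shPml, a short hairpin RNA named for the gene Pml, or shCTRL, the control hairpin. The hosts were BALB/c mice, 6 to 8 weeks old, with the cells placed in a mammary fat pad. Both groups share the tumour line, the host strain, the site and the day of collection, 14 days after implantation. The hairpins were in the tumour cells, so the sorted leukocytes give no check of the knockdown. Each group was 1 droplet (10x Chromium) library, and how many mice stand behind each is not stated in the sources used. There is therefore no replicate check of any difference between the groups, and every interval below is an exact 95% interval that covers counting error only. UMIs (unique molecular identifiers, which mark counted transcripts) that pile up in single cells make such intervals too narrow.

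The B cell receptor is a membrane immunoglobulin held by the signalling pair Cd79a and Cd79b, whose tails carry the tyrosine motifs that start the signal. Igkc and Iglc2 encode constant parts of the kappa and lambda light chains, and Ighm, Ighd and Ighg1 those of the IgM, IgD and IgG1 heavy chains. Mature naive B cells make IgM and IgD from the same long transcript by alternative splicing, and class switching replaces both with IgG, IgA or IgE. Ms4a1 encodes CD20, a membrane protein of B cells that plasma cells lack. Jchain joins IgM and IgA into multimers, and Mzb1 is a chaperone of the endoplasmic reticulum that helps immunoglobulin assembly. Plasma cells secrete antibody and carry very high immunoglobulin transcript levels.

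Several of these genes have close copies, so reads can be hard to place, and how such reads were counted is not stated in the sources used. The coding sequences below, from GENCODE M21 on mm10, show how alike the copies are. Iglc2 and Iglc3 matched at 303 of 315 aligned positions (96.2%), Iglc2 and Iglc1 at 234 of 319 (73.4%), and Ighg1 and Ighg2b at 756 of 1011 (74.8%). The lambda windows start at the second coding base of Iglc2 and the first of the other genes. The Iglc2 window is chr16:19198733-19198852, that of Iglc3 chr16:19065562-19065681 and that of Iglc1 chr16:19061952-19062071, all coding exon sequence on the minus strand. Capitals mark the 7 bases at which Iglc2 and Iglc3 differ and, in Iglc1, the 28 bases that differ from Iglc2.
Iglc2: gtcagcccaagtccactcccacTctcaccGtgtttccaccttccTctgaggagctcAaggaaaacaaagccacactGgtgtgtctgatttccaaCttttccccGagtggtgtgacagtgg
Iglc3: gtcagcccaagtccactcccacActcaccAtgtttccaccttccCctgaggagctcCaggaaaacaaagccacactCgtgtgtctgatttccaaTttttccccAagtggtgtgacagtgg
Iglc1: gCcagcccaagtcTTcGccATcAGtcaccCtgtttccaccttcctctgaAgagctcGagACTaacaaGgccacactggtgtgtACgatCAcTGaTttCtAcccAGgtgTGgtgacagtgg

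The IgG windows are the first 120 coding bases of the first constant exon, chr12:113330404-113330523 for Ighg1 and chr12:113307814-113307933 for Ighg2b, both on the minus strand. They are shown because these 2 genes hold most of the switched heavy chain UMIs in the B cells. Capitals mark the 21 bases at which they differ.
Ighg1: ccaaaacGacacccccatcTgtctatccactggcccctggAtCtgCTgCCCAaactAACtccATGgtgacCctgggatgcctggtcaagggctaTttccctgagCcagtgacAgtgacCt
Ighg2b: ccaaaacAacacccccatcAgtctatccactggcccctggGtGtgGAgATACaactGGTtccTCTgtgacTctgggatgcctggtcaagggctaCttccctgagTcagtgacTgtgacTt
Levels of Iglc2 are therefore uncertain against Iglc3. The annotation also places an antisense gene, 4930526L06Rik, over Ms4a1. On the same strand it places Gm30211 over Igkc, Iglj2 over Iglc2 and Spata24 over Mzb1, pairs that the strand cannot separate. Whether counting used the strand is not stated in the sources used.

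RefSeq promoter windows were matched for 2 of the 10 genes, Cd79a and Jchain. Cd79a is the gene among them whose promoter has a well-known site for EBF1, the transcription factor that sets the B cell programme together with Pax5. The window, chr7:24897247-24897546 on the plus strand of GRCm38.p6, runs from 250 bases before to 50 bases after the gene's RefSeq start. The annotation used for gene positions starts Cd79a at another base, 24897381. Capitals mark the letters CAAGGGAAT, searched on both strands, which begin 174 bases before the RefSeq start.
Cd79a: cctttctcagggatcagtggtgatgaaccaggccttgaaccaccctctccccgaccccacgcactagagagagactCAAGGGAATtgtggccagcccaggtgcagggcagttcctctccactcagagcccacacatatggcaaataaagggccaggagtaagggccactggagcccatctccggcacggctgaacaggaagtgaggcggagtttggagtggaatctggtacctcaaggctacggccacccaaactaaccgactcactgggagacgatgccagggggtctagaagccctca
These letters occurred in 80 of 32851 windows of the same length (0.244%), and Jchain's window held none. The octamer ATGCAAAT, the classic element of immunoglobulin promoters, overlaps no part of that motif. It occurred in 570 of the windows (1.74%) and in neither of the matched ones. Ebf1 stood at 1148 CPM (UMIs per 1000000 UMIs of the class) in shPml B cells and 1420 in shCTRL B cells, and Pax5 at 270 and 318.

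Libraries differed in quality. The shPml library held 2268 barcodes and 4227187 UMIs and the shCTRL library 2244 barcodes and 5044925 UMIs, but 22.7% of shPml and 61.9% of shCTRL barcodes exceeded the limit of 10% mitochondrial UMIs. This left 1754 and 856 barcodes, with medians of 1300 and 4040 UMIs. The libraries also shared 266 barcode sequences, of which 263 and 261 were kept. The main results that rest on shared barcodes are given with and without them. Other values, among them the Ighv and Igkv counts, are given with them only.

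B cells were barcodes with at least 2 UMIs of Cd79a and Cd79b together, or at least 1% of UMIs from Jchain, and no UMI of Cd3d, Cd3e or Cd3g. The levels of Cd79a, Cd79b and Jchain in B cells thus follow from the rule and are a description. T cells had at least 1 Cd3 UMI, and neutrophils at least 1% of UMIs from S100a8 and S100a9. Just inside the Cd79 threshold, 3 shPml and 2 shCTRL B cells had exactly 2 UMIs, and just outside it 17 and 5 barcodes without Cd3 had exactly 1. The 6 B cell markers, which include Cd79a and Cd79b, were all detected in B cells of both libraries. Of 6 markers of plasmacytoid dendritic cells, Siglech, Ccr9, Klk1 and Cox6a2 were at 0 in both. The other two had UMIs in both, Bst2 with 31 in shPml and 28 in shCTRL B cells and Tcf4 with 47 and 46. Of 5 monocyte or macrophage markers 2 and 1 were detected, with 3 and 1 UMIs. Of 5 T cell markers, Cd3d, Cd3e and Cd3g were at 0 by the gate. Trac had 0 and Trbc2 1 UMI in shPml B cells, against 4 and 7 in shCTRL B cells. These UMIs lay in 1 of 58 and 11 of 51 cells. Neutrophil markers summed to 929 UMIs in shPml B cells, with 0 to 102458 CPM per cell, and to 7 in shCTRL B cells. One shPml B cell also passed the neutrophil gate.

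B cells made up 58 of 1754 kept shPml barcodes (3.31%, 2.52 to 4.25) and 51 of 856 shCTRL barcodes (5.96%, 4.47 to 7.76). The shPml share was 0.555 times the shCTRL share (0.374 to 0.825). Without shared barcodes it was 49 of 1491 against 42 of 595, a ratio of 0.466 (0.302 to 0.721). The difference ended when no mitochondrial limit was used: the ratio was then 1.04 (0.803 to 1.34), with 127 and 121 B cells. Fewer B cells of the shPml tumours and more cells of other types cannot be told apart from shares, and neutrophils made up 10.4% of kept barcodes in shPml against 2.80% in shCTRL. Median depth in B cells was 4068.5 UMIs in shPml and 4516 in shCTRL, and the classes held 359733 and 266890 UMIs.

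**Figure D1:**
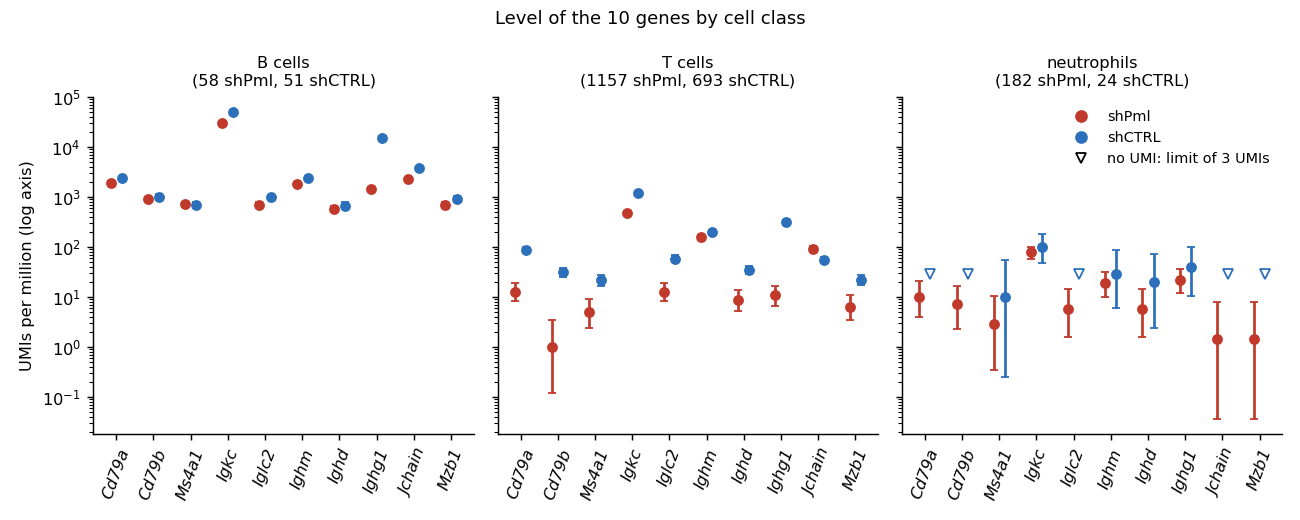
Level of each of the 10 genes in B cells, T cells and neutrophils, in CPM on a log axis, with 95% counting intervals. Open triangles stand at the level of 3 UMIs where a gene had none. Every gene is higher in B cells than in the other classes of the same library, with shared barcodes kept.

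In the receptor's signalling pair, Cd79a had 697 UMIs in shPml B cells, or 1938 CPM (1796 to 2087), and 632 UMIs or 2368 CPM (2187 to 2560) in shCTRL B cells. It was found in 56 of 58 and 50 of 51 cells. Cd79b stood at 903 CPM (808 to 1007) in shPml and 1008 (891 to 1136) in shCTRL B cells, in 47 and 46 cells. The partners were found together in 45 cells of each library, where the product of the separate shares gives 45.4 and 45.1, and the gate uses their sum. The intervals of Cd79a do not overlap between libraries, while those of Cd79b do. Intervals were also apart for Igkc, Iglc2, Ighm, Ighg1, Jchain and Mzb1, while those of Ighd overlapped. All of these intervals cover counting error only, and the share of all genes with intervals apart is not given here. Ms4a1, which the gate did not use, stood at 714 CPM (630 to 807) and 697 CPM (600 to 805), with overlapping intervals, in 47 and 42 cells.

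Among the light chains, Igkc had 10763 UMIs in shPml B cells (29919 CPM) and 13288 in shCTRL B cells (49788 CPM), in 57 of 58 and all 51 cells. Single cells set these sums: the leading cell held 7530 of the UMIs (70.0%) in shPml and 11120 (83.7%) in shCTRL. The median B cell had 27 Igkc UMIs in shPml and 35 in shCTRL. Iglc2 was spread more evenly, at 701 CPM (617 to 793) and 993 CPM (877 to 1120), with 6.75% and 9.06% of its UMIs in the leading cell.

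Among the heavy chains, Ighm stood at 1860 CPM (1721 to 2006) in shPml and 2387 CPM (2205 to 2580) in shCTRL B cells, in 46 and 47 cells. Ighd stood at 570 CPM (495 to 653) and 678 CPM (583 to 785), in 39 and 40 cells. Both were spread over many cells, and 9 cells of each library held 50% of the Ighm UMIs. Ighg1 was in 15 shPml cells with 514 UMIs (1429 CPM) and in 5 shCTRL cells with 4079 UMIs (15283 CPM). One shCTRL cell held 4059 of those UMIs (99.5%), and 1 shPml cell held 356 (69.3%).

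Of the secretory genes, Jchain had 822 UMIs in 14 shPml cells and 999 UMIs in 12 shCTRL cells, or 2285 and 3743 CPM. Its leading cell held 68.1% and 89.7% of them. Mzb1 was broader, in 38 and 37 cells at 689 and 929 CPM, with 26.6% and 47.2% in the leading cell. Cd79a, by comparison, had 8.32% and 6.33% of its UMIs in its leading cell.

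**Figure D2:**
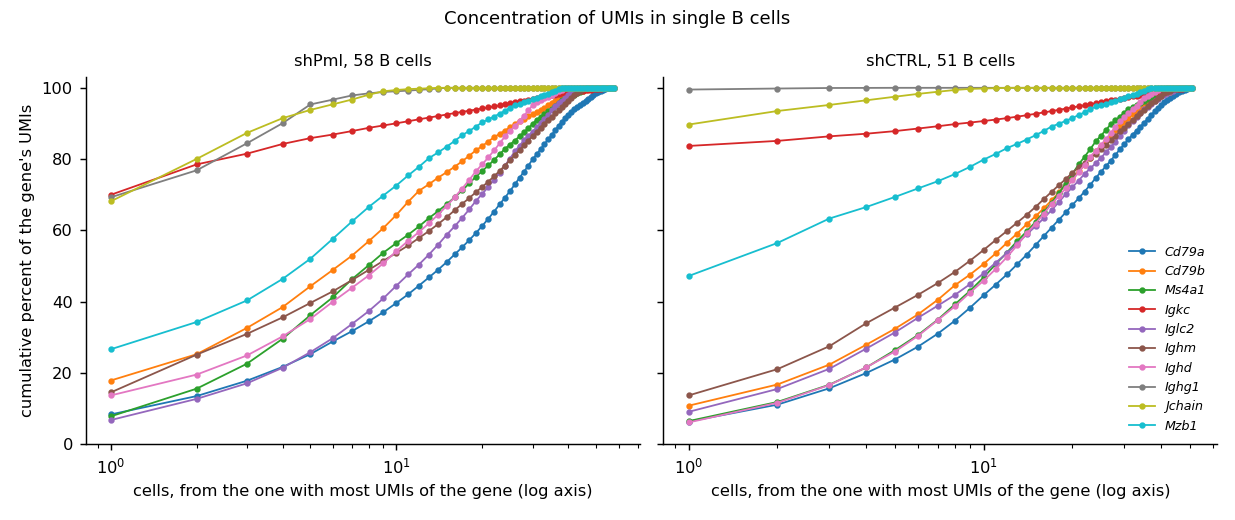
Cumulative percent of each gene's UMIs against the number of B cells, counted from the cell with most (log axis), in the 58 shPml and 51 shCTRL B cells. Ighg1, Jchain and Igkc start at 69.3%, 68.1% and 70.0% in shPml and at 99.5%, 89.7% and 83.7% in shCTRL, while Cd79a, Ms4a1 and Iglc2 start below 10% in both.

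Immunoglobulin genes and Jchain together gave 4.82% of the UMIs of shPml B cells and 7.45% of those of shCTRL B cells. Per cell the share ran from 0.107% through a median of 1.06% to 64.1% in shPml, and from 0.653% through 1.41% to 61.3% in shCTRL. Only 3 shPml and 2 shCTRL B cells were at 10% or more, and they are the cells that passed through Jchain. The leading cell held 67.8% and 81.6% of all immunoglobulin UMIs of the class. Without shared barcodes the class share was 1.22% and 1.33%, the median 1.02% and 1.33%, and the highest cell 47.5% and 2.94%.

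The leading shPml cell had 24307 UMIs, of which 48.3% were immunoglobulin, with 7530 of Igkc, 3454 of Ighg2b and 560 of Jchain and none of Ighm, Ighd or Ms4a1. The leading shCTRL cell had 26459 UMIs, 61.3% immunoglobulin, with 11120 of Igkc, 4059 of Ighg1 and 896 of Jchain and again none of Ighm, Ighd or Ms4a1. Both carried Xbp1, the transcription factor of secretory cells (33 and 38 UMIs), Mzb1 (66 and 117 UMIs) and Sdc1, the plasma cell surface proteoglycan (3 UMIs each). Cd79a was low there, at 9 and 6 UMIs. In the Jchain-gated cells Pax5 had no UMI in either library, against 97 and 85 UMIs in the other B cells.

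Across all barcodes, also those outside the B cell gate, 5 in shPml and 6 in shCTRL had at least 10% of their UMIs from immunoglobulin genes and Jchain. They held 73.8% and 74.7% of all such UMIs in their libraries. Not all were in the B cell gate. One shPml and 1 shCTRL barcode, with 4415 and 1898 UMIs, had Igha as their main heavy chain gene (705 and 289 UMIs) and each had 9 Cd3 UMIs, which put them in the T cell gate. Another T-gated shCTRL barcode had 911 UMIs of Ighg1 and 2 Cd3 UMIs. Scrublet, a doublet caller, marked none of the kept ones, and whether they hold more than 1 cell was not tested otherwise.

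Barcodes found in both libraries bear on these cells. Of 12 barcode sequences shared between the libraries and either in the B cell gate or high in immunoglobulin in at least 1 of them, 7 passed the B cell gate in both. The most abundant heavy chain constant gene was the same in 11 of 11 pairs where both had one. Several of these pairs matched on Ighm, which led in 45 of 58 shPml and 42 of 51 shCTRL B cells. Some of the calls rest on 1 UMI. The leading shPml cell, with 3454 UMIs of Ighg2b, had a shCTRL partner of 654 UMIs with 71 of Ighg2b. The leading shCTRL cell, with 4059 UMIs of Ighg1, had a shPml partner of 2150 UMIs with 356 of Ighg1, and both had Igkv9-124 as their main kappa variable gene. The Igha barcodes were such a pair too, and shared Ighv1-85. In 4 of the 12 pairs the shPml barcode was the larger. The cause of these matches was not tested.

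**Figure D3:**
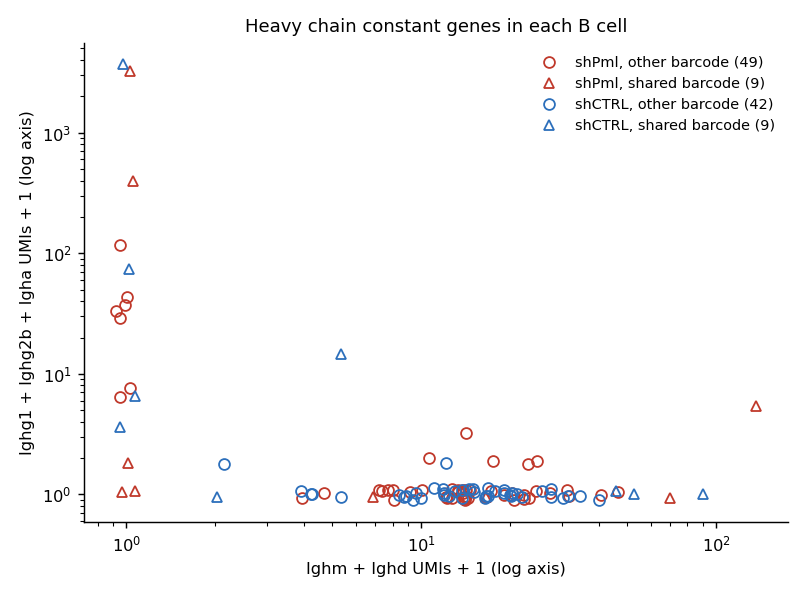
UMIs of Ighm and Ighd against UMIs of Ighg1, Ighg2b and Igha in each B cell, both with 1 added, on log axes, with points moved slightly at random so that they can be seen apart. Triangles are barcodes found in both libraries. Cells with 10 or more switched UMIs lie at the left edge, except 1 shCTRL cell with Ighm.

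By the most abundant heavy chain constant gene, 45 of 58 shPml B cells were Ighm cells, 1 Ighd, 8 Ighg1, 2 Ighg2b and 1 Ighg2c, and 1 had no heavy chain UMI. Among 51 shCTRL B cells 42 were Ighm, 4 Ighd, 3 Ighg1, 1 Ighg2b and 1 Ighg2c. Igha and Ighe led in none of these B cells. Without shared barcodes, Ighg1 led in 6 of 49 B cells from shPml and in 0 of 42 from shCTRL, and Ighg2b in 1 and 0. A count of 0 among 42 cells allows a share of up to 7.14% (3 counts).

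Ighm and Ighd were detected together in most B cells. Both were in 39 shPml cells (67.2%) and 40 shCTRL cells (78.4%), and no cell had Ighd without Ighm. These shares rest on depth: with each cell thinned to 500 UMIs they were 12 of 58 cells (20.7%, 11.2 to 33.4) and 6 of 51 (11.8%, 4.44 to 23.9), where the product of the separate shares gives 8.79 and 7.53 cells. Cells with at least 10 switched UMIs (IgG, IgA or IgE genes) numbered 7 and 4, and none had an Ighd UMI. Without shared barcodes they numbered 5 and 0.

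Jchain was counted beside switched heavy chains and beside Ighd. In shPml B cells 8 had Ighg1 and Jchain, where the product of the shares gives 3.62, while 0 had Ighd and Jchain, where it gives 9.41. In shCTRL B cells the counts were 3 against 1.18 for Ighg1 and 3 against 9.41 for Ighd. Without shared barcodes Ighg1 and Jchain met in 5 and 0 cells, and Ighd and Jchain in 0 and 2. Jchain itself was then in only 6 of 49 shPml and 3 of 42 shCTRL B cells. Thus 2 of the 3 shCTRL cells with Jchain also had Ighd, and the products were not computed for this set. At 500 UMIs per cell Ighd met neither Ighg1 nor Jchain in any cell of either library. The products there were small, at 2.59 for each pair in shPml and 0.471 and 1.18 in shCTRL. Jchain and Mzb1 met in 5 and 4 cells at that depth, where the products give 1.90 and 1.27. Jchain is also part of the gate, and 2 shPml and 0 shCTRL B cells entered through it alone. These 2 had Ighg1, Jchain and Mzb1 and no Ighd, so the shPml counts follow in part from the rule.

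A B cell normally keeps 1 light chain type, and kappa dominates in mice. Igkc exceeded the sum of Iglc1, Iglc2 and Iglc3 in 56 of 58 shPml and 50 of 51 shCTRL B cells. Yet both types had UMIs in 48 and 49 cells. Among the 40 and 44 cells with at least 20 light chain UMIs, 18 and 21 had 20 to 80% from lambda genes, and none had over 80%. Without shared barcodes these were 17 of 36 and 21 of 36. Iglc2 is not spread alike over the classes: at 500 UMIs per cell it was found in 31.0% of shPml and 49.0% of shCTRL B cells, but in 0.259% and 1.01% of T cells.

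Few UMIs of variable gene segments were found outside a few cells. Among B cells, Ighv genes had 16 UMIs in shPml and 4 in shCTRL, and Igkv genes 51 and 19. Igkv6-23 had 20 of the 51 shPml Igkv UMIs and Igkv9-124 had 8 of the 19 in shCTRL. All 20 and 7 of the 8 were in the leading cells, whose barcodes are shared. Outside the cells at 10% immunoglobulin, 10 and 9 Igkv UMIs were left. Iglv genes had 145 and 131 UMIs, 135 and 119 of them of Iglv1, and 3 and 7 were left outside those cells. Without shared barcodes Iglv1 had 13 and 3 UMIs in B cells.

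T cells and neutrophils, the other gated classes, were read for comparison, and Ighm in T cells stood apart, as given below. With all gated cells, the 7 genes that the gate did not use were each at least 2-fold higher in B cells than in T cells in both libraries, and so were the other 3, which the gate used. The same rule was met by 8.51% of all genes tested in shPml and 7.21% in shCTRL. Against neutrophils, again with all gated cells, it was met by 7 of 7 genes outside the gate, with a background of 39.7% and 41.2%. The other 3 follow from the gate. For the 7 genes outside the gate the ratio to T cells ran from 11.9 (Ighm) to 146 (Ms4a1) in shPml and from 11.9 (Ighm) to 47.6 (Ighg1) in shCTRL. The shCTRL value of Ighg1 rests on 1 B cell and 1 T-gated barcode. Without high-immunoglobulin barcodes it was 83.4 against 27.8 CPM, a ratio of 3.001 (1.75 to 4.93). Without shared barcodes 2 UMIs were left in shCTRL B cells and Ighg1 was lower there than in T cells, at 11.2 against 404 CPM. Both ways of leaving barcodes out were chosen here after seeing the data. Without shared barcodes the rule was met against T cells by 7 of 7 genes in shPml and by 6 of 7 in shCTRL. Against neutrophils 7 of 7 met it in shPml and 6 of 7 in shCTRL, both without shared and without high-immunoglobulin barcodes. Ighg1 failed in shCTRL, at 0.195 (0.018 to 1.36) and 2.12 (0.711 to 8.54) times its neutrophil level. The share over all genes was not computed for these cell sets. Igkc in shCTRL stood at 5.48 times its T cell level without shared barcodes. Cd79a, Cd79b, Iglc2, Jchain and Mzb1 had no UMI in the 24 shCTRL neutrophils, so that their ratios there were set against 3 UMIs, or 29.5 CPM.

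In T cells the receptor pair was nearly absent in shPml, with Cd79a at 12.7 CPM (8.32 to 18.7) and Cd79b at 2 UMIs in 1157 cells. In shCTRL T cells they stood at 89.2 CPM (79.05 to 100) and 31.6 CPM (25.6 to 38.5). There 22 T-gated barcodes had at least 2 Cd79 UMIs, against 2 in shPml, and the part of such barcodes in the level was not tested further. Igkc in T cells rested on 1 barcode each: it stood at 491 CPM in shPml, 85.6% of it from the Igha barcode, and at 1200 CPM in shCTRL, 73.2% of it from the Ighg1 barcode. In neutrophils Igkc stood at 77.9 CPM (58.5 to 102) and 98.2 CPM (47.1 to 181).

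Ighm stood apart among the genes in T cells. T cells with no Cd79 UMI and under 10% immunoglobulin had Ighm at 149 CPM (133 to 167) in shPml, with 297 UMIs in 225 of 1140 cells, and at 136 CPM (122 to 150) in shCTRL, with 369 UMIs in 193 of 621 cells. Igkc in the same T cells stood at 63.3 CPM (52.7 to 75.4) and 60.6 CPM (51.7 to 70.6). In this set the ratio between the 2 genes differed from that in B cells. These T cells had 236 and 224 Ighm UMIs per 100 of Igkc, while B cells under 10% immunoglobulin had 33.6 and 32.2. Neutrophils without Cd79 UMIs had 13.0 in shPml, from 6 Ighm UMIs at 9.31 CPM (3.42 to 20.3), and 30.0 in shCTRL, from 3. The T cell ratio depended on the set. With T cells that have Cd79 UMIs kept, still under 10% immunoglobulin, it was 218 in shPml and 92.4 in shCTRL. There shCTRL Ighm stood at 200 CPM (185 to 216) and Igkc at 217 CPM (200 to 234). Over all T cells the ratio was 31.9 and 16.6. In the set without Cd79 UMIs, leaving out shared barcodes gave Ighm at 146 and 124 CPM, and 218 and 233 per 100 of Igkc.

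The Ighm UMIs were spread over the T cells, with at most 11 in 1 shPml and 20 in 1 shCTRL cell of that set. They were found in T cells of each kind tested, here all T cells without Cd79 UMIs, with high-immunoglobulin barcodes kept. Those with Cd8a or Cd8b1 and no Cd4 had 158 CPM (136 to 183) in shPml and 162 (136 to 190) in shCTRL, and those with Cd4 and neither Cd8 gene 98.1 (59.9 to 151) and 135 (114 to 158). T cells with Foxp3, the regulatory T cell factor, had 244 CPM (156 to 363; 19 cells) and 298 (238 to 367; 37 cells). Ighd in the T cells without Cd79 UMIs stood at 5.03 and 7.72 CPM.

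**Figure D4:**
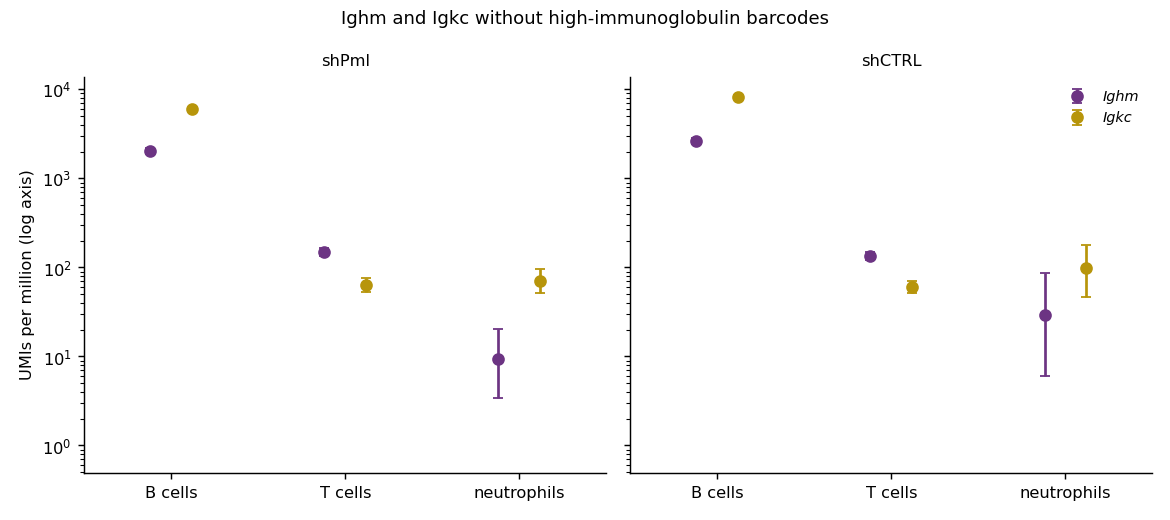
Ighm and Igkc in CPM on a log axis with 95% counting intervals, in B cells under 10% immunoglobulin and in T cells and neutrophils that also lack Cd79 UMIs. Ighm lies below Igkc in B cells and neutrophils of both libraries and above it in T cells, at 149 against 63.3 CPM in shPml and 136 against 60.6 in shCTRL. The intervals of the 24 shCTRL neutrophils overlap. In shCTRL T cells with Cd79 UMIs kept, which are not drawn, Ighm stood at 200 and Igkc at 217 CPM.

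The libraries were then compared within B cells, as the log2 ratio of shPml over shCTRL levels. Fewer transcripts per cell and fewer cells that express a gene cannot be told apart in such sums, and the ratios compare 2 libraries, not the hairpins. A gene counted as past the fold at a log2 ratio of 1 or more in size with an interval without 0, which 6.4% of 3814 genes met (3.78% higher and 2.62% lower in shPml). Of the 10 genes 1 was past it, Ighg1, at -3.42 (-3.55 to -3.29). The median of the 10 was -0.40, against -0.02 over all genes tested, and 1 of 10 lay above 0, against 1840 of 3814 (48.2%). The median of the 10 was -0.18 without shared barcodes, -0.10 without leading cells and -0.027 as a mean over cells.

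Without the leading cell of each library, Ighg1 turned to 2.41 (1.73 to 3.16), and without shared barcodes to 5.67 (3.795 to 8.73), from 155 UMIs against 2. Igkc, at -0.73 (-0.77 to -0.70), turned to 0.10 (0.02 to 0.18) without its leading cells and stood at -0.17 (-0.27 to -0.06) without shared barcodes. Jchain, at -0.71 (-0.85 to -0.58), turned to 0.87 (0.53 to 1.21) and 2.52 (1.72 to 3.43). Mzb1, at -0.43 (-0.69 to -0.17), stood at -0.01 (-0.34 to 0.33) and 0.39 (-0.04 to 0.82). For Ighg1 and Jchain the direction between the libraries reversed both ways, and for Igkc it reversed when 1 cell of each library was left out.

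The evenly spread genes moved less. Cd79a was at -0.29 (-0.45 to -0.13) and, without shared barcodes, -0.27 (-0.45 to -0.09). Ighm was at -0.36 (-0.52 to -0.20) and -0.53 (-0.72 to -0.34), and Iglc2 at -0.50 (-0.76 to -0.25) and -0.57 (-0.83 to -0.30). The intervals of Cd79b, at -0.16 (-0.40 to 0.08), Ms4a1, at 0.04 (-0.24 to 0.32), and Ighd, at -0.25 (-0.55 to 0.05), held 0, which does not show that the libraries were alike. Ighd stood at -0.62 (-0.93 to -0.31) without shared barcodes. At a mitochondrial limit of 5%, with 16 and 27 B cells, Ms4a1 was at -1.55 (-2.28 to -0.88), past the fold, and Cd79b at -0.76 (-1.26 to -0.27). With a gate on other B cell genes than Cd79a and Cd79b, one of which is Ms4a1, Ms4a1 was at -0.38 (-0.65 to -0.10), Cd79b at -0.53 (-0.77 to -0.29) and Ighd at -0.67 (-0.96 to -0.37).

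**Figure D5:**
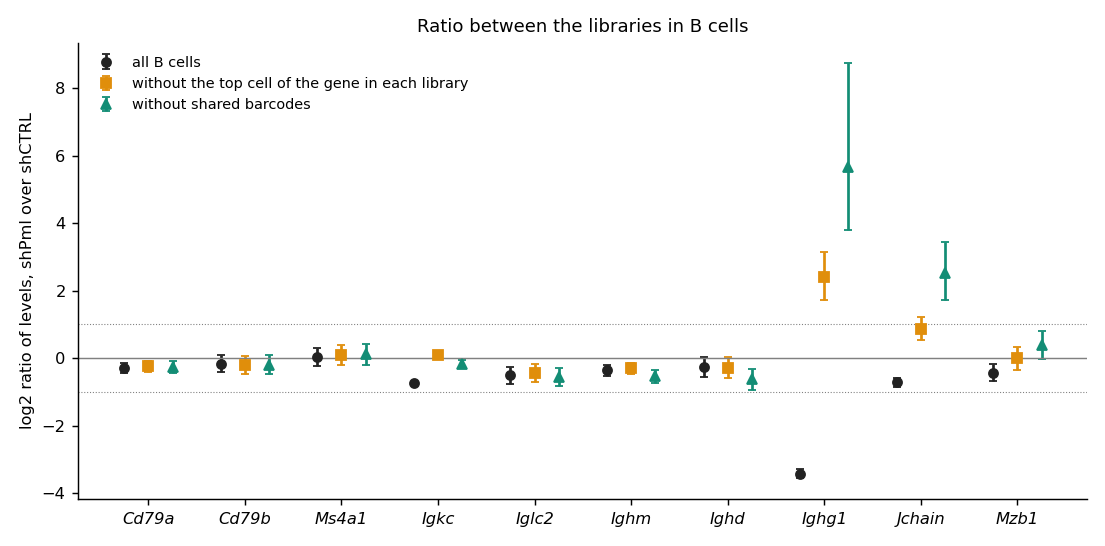
Log2 ratio of the level in shPml over shCTRL B cells for each gene with 95% counting intervals, in all B cells, without the leading cell of the gene in each library, and without shared barcodes. Ighg1 moves from -3.42 to 2.41 and 5.67 and Jchain from -0.71 to 0.87 and 2.52, while Cd79a stays between -0.29 and -0.24.

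Other genes of the pathway were read in the same B cells. Of the other immunoglobulin constant genes, 4 of 8 had enough UMIs (20 over both libraries) and 2 were past the fold, both higher in shPml. Ighg2b had 3566 UMIs against 74 (5.16, 4.83 to 5.51), with 3454 in 1 shPml cell and 71 in 1 shCTRL cell, which share a barcode. Without shared barcodes it had 108 against 0. Iglc1 had 204 against 58 (1.38, 0.96 to 1.83), with 128 of them in 1 shared shPml barcode, and was not past the fold without shared barcodes (0.59, -0.03 to 1.23).

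Of 12 genes of B cell receptor signalling, 1 was past the fold in each direction and the median was 0.05. Syk, the kinase that binds the phosphorylated Cd79 tails, had 98 UMIs in shPml and 34 in shCTRL B cells (1.10, 0.52 to 1.70). Btk, the kinase mutated in X-linked agammaglobulinaemia, had 16 and 26 (-1.13, -2.13 to -0.18). Blnk, the adaptor that links them, was at 0.84 (0.39 to 1.30). Without shared barcodes Syk was at 1.04 (0.37 to 1.75) and Btk at -1.12 (-2.22 to -0.06).

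Of the B cell coreceptors, 9 of 10 were measured, none lay above 0, where 48.2% of all genes tested did, and 1 was past the fold, lower in shPml as were 2.62% of all genes. Fcrla, an intracellular Fc receptor-like protein of B cells, had 34 and 64 UMIs (-1.34, -1.99 to -0.72; -1.12 without shared barcodes). Cd72, an inhibitory coreceptor, was at -0.54 (-0.93 to -0.14). None of 11 B cell transcription factors and none of 9 homing and survival receptors was past the fold. Pou2af1, the coactivator of octamer factors, was at 0.79 (0.35 to 1.25), and Tnfrsf13c, the BAFF receptor, at -0.74 (-1.14 to -0.35).

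Of the germinal centre and activation genes, Cd83, an activation marker, was at -0.68 (-0.95 to -0.41). Of 10 measured plasma cell genes none was past the fold, and Xbp1 was at -0.38 (-0.96 to 0.21). The Jchain-gated cells held 38 of its 53 UMIs in shPml and 38 of its 51 in shCTRL.

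The genes most like the 10 in their restriction to B cells were ranked by the B cell share, the level in B cells over the sum of levels in B cells, T cells and neutrophils, taken in the library where it was lower. Over 567 genes with at least 50 UMIs in B cells of both libraries, 3 classes and 2 libraries, the nearest non-members included Ighg2b (99.8%), Vpreb3 (97.9%), Bcl11a (97.8%), Iglv1 (97.5%), Fcmr (97.0%), Scd1 (96.9%), Blnk (96.3%), Pax5 (96.1%) and H2-DMb2 (95.9%). The place of Ighg2b and Iglv1 rests on shared barcodes: without them shCTRL B cells had 0 and 3 UMIs, under that minimum. The same holds for 2 of the members, Ighg1 and Jchain, with 2 and 14 UMIs. The members ran, with shared barcodes kept, from 97.7% for Mzb1 to 91.2% for Ighm, which ranked 39. The gate chose cells on 3 of the members, so their place in this order is a description.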

How the data were processed

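The authors deposited 1 matrix of raw UMI counts per library, whose headers name Cell Ranger 4.0.0. The genome build and other tools, per the submitters' processing notes, were mm10, R 4.3.3 and Seurat 4.4.0, with no role given. Both deposited matrices start at 500 UMIs per barcode, and the gene annotation and library chemistry are not given in the sources used here. Barcodes with at most 10% mitochondrial UMIs were kept and gated as described, with no clustering. Classes can overlap: 15 shPml and 5 shCTRL T cells also passed the neutrophil gate. No doublets were removed. Scrublet in scanpy 1.11.5 marked 5 of 1754 shPml and 6 of 856 shCTRL barcodes, whose removal was an alternative. CPM are summed UMIs of a class per 1000000. Intervals are exact Poisson (levels), Clopper-Pearson (shares) or conditional binomial (ratios). Ratios against 0 used a floor of 3 counts over the class. No p-values were computed because each group had 1 library. Cells thinned to 500 UMIs left none out. Genes needed 20 summed UMIs for a ratio. The members, gene lists and rules for named genes were chosen with earlier results of these data known: per list, up to 4 genes with the interval bound farthest from 0. Ratio code was tested on simulated data, and thinning code was run on the shPml B cells to check the total per cell. Sequences came from GENCODE M21 and RefSeq (GRCm38.p6), aligned globally. Results for some genes of the lists are not reported here.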

Additional observations from a re-analysis of the deposited data

Results flagged for a closer look

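Barcodes above the mitochondrial limit, which were left out of the B cells as reported, also passed the B cell gate: 69 of 514 in shPml (13.4%, 10.6 to 16.7) and 70 of 1388 in shCTRL (5.04%, 3.95 to 6.33). They were shallow, with medians of 866 and 988.5 UMIs. Their levels were 2467 and 2428 CPM for Cd79a, 2898 and 3161 CPM for Ighm, 4378 and 4776 CPM for Igkc and 431 and 208 CPM for Ighg1.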

How the results depend on the processing

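No paired analysis was possible because there was a single library per group. Depth and cell number limit every value: 58 and 51 B cells allow no statement on rare types. The B cell share ratio was 0.340 at a mitochondrial limit of 5% and 1.04 with none, and stayed within its interval under the other 7 alternatives. The number of genes past the fold, 1 as reported, was 2 at the 5% limit (Ighg1 and Ms4a1) and without shared barcodes, and 3 with at least 1 Cd79 UMI and with a gate on other B cell genes than Cd79a and Cd79b. The share of all genes past the fold was not computed for these alternatives. The median log2 ratio of the 10 genes was -0.69 with at least 1 Cd79 UMI, -0.18 without shared barcodes, -0.10 without leading cells and -0.027 as a mean over cells. With the gate on other B cell genes, Igkc turned to 1.42, Ighg1 to 2.08 and Jchain to 2.05. Without shared barcodes Ighg1 turned to 5.67, Jchain to 2.52 and Mzb1 to 0.39. Without leading cells Igkc turned to 0.10, Ighg1 to 2.41 and Jchain to 0.87. As a mean over cells Igkc turned to 0.11, Ighg1 to 0.044, Jchain to 0.98 and Mzb1 to 0.14. Ighg1 turned to 2.47 without the Jchain-gated cells and without high-immunoglobulin barcodes, the latter an alternative chosen after seeing the data. Ighm turned to 0.033 at the 5% limit. Over 15 alternatives Cd79a ran from -0.68 to -0.19 and Iglc2 from -0.90 to -0.39, while Cd79b ran from -0.76 to -0.025, Ms4a1 from -1.55 to 0.15 and Ighd from -0.67 to 0.09. The summed level of the 10 genes in shPml T cells, 796 CPM, was 873 with at least 2 Cd3 UMIs, 294 without shared barcodes, 1635 at the 5% limit and 283 without high-immunoglobulin barcodes. In shCTRL T cells, 2034 CPM became 1781, 2285, 788 and 679 in the same order, 393 without Cd79 UMIs and 1878 with no mitochondrial limit. In shPml neutrophils, 153 CPM became 113 without Cd79 UMIs. Cells with both Ighm and Ighd were 41.5% (shPml) and 37.5% (shCTRL) at 1000 UMIs per cell and 67.2% and 78.4% without thinning. Where no cause is named, the cause was not tested.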
